A study of Mus musculus with 6 samples.

Results

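Xiap was examined together with 7 genes that act with it, 8 genes of the 22040 in the deposited expression table. They are the inhibitor of apoptosis (IAP) genes Xiap, Birc2, Birc3 and Birc6, the caspase gene Casp9, and the IAP antagonists Diablo, Htra2 and Xaf1. Xiap was chosen because it is higher with ginsenoside Rb1 in these same libraries, so its values are given as a description with no test. The other 7 were chosen by family and function, and their symbols and that of Xiap were matched to Ensembl identifiers. RNA was sequenced from white adipose tissue of mice in 2 groups of 3 samples. Control mice received saline intraperitoneally, and the treated mice received ginsenoside Rb1, a triterpene saponin of ginseng, by the same route at 14 mg/kg per day. The labels used here state no fat depot, strain, diet, age or duration of dosing. They also do not say whether a group's samples came from separate mice, so the p-values reflect sample-to-sample spread that may be technical.

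IAP proteins carry baculovirus IAP repeat (BIR) domains, zinc-binding folds that dock onto caspases and onto short N-terminal motifs. XIAP blocks the catalytic activity of caspases, among them the initiator CASP9, whereas BIRC2 and BIRC3 (cIAP1 and cIAP2) act mainly as ubiquitin ligases in tumour necrosis factor receptor signalling. When the outer mitochondrial membrane is breached, DIABLO and HTRA2 reach the cytosol and displace caspases from the BIR domains. In obese fat, dying adipocytes are cleared by macrophages that gather around them in crown-like structures.

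Total counts per library were 15440339 to 24501446. Mature adipocyte markers were abundant in every library, with the 10 listed genes together at 19609 to 22367 CPM (each count as a share of its library's total) in controls and 20579 to 25452 with Rb1. Control replicate 2 stood apart through skeletal muscle transcripts: the 15 listed muscle genes summed to 33506 CPM there. They summed to 446 and 489 CPM in control replicates 1 and 3, and to 63.2 to 217 CPM with Rb1. The groups thus still differed in muscle transcripts without control replicate 2. Without it, the log2 fold changes of Rb1 over control were 0.09 for Birc2, -0.21 for Birc3, -0.03 for Birc6, -0.61 for Casp9, 0.06 for Htra2 and -0.20 for Xaf1. The values of Xiap and Diablo without it stand with their descriptions. Macrophage markers also moved with the groups. Of 12 listed, 10 had negative fold changes, as did 48.7% of all tested genes. The summed level of the 12 was 2303 to 2629 CPM in controls and 1404 to 1929 CPM with Rb1. B cell markers summed to 27.9 to 42.9 CPM in controls and 16 to 19.9 CPM with Rb1, with 4 of 7 negative. T and natural killer cell sums overlapped, at 14.7 to 42.8 and 10.4 to 26.5 CPM, with all 10 tested genes negative. All 7 endothelial markers had positive fold changes. In whole tissue, fewer cells of a type and less RNA per cell cannot be told apart. The Y-linked genes Ddx3y, Eif2s3y, Kdm5d and Uty had at least 426 counts in each of the 6 libraries, so all 6 held RNA of males, which carry 1 copy of the X-linked Xiap.

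The sequence before the annotated starts is shown for Xiap, for Birc2 and Birc3, its relatives in the same family, and for Casp9, its target. RefSeq (GRCm38.p6) gave start windows for 7 of the 8 genes, 3 of them for Xiap, and none was matched for Htra2. Of the 250 bases before each start, the stretch outside annotated exons is printed, 5′ to 3′ on the gene's strand. The Xiap stretches are chrX:42068148-42068356 (start a) and chrX:42067586-42067835 (start b) on the plus strand. All 3 Xiap windows lie inside the gene span given below, which begins at 42059679, so none covers the start of that span. Birc2 is at chr9:7837065-7837307 and Birc3 at chr9:7873187-7873420, both on the minus strand, and Casp9 is at chr4:141793362-141793611 on the plus strand. Capitals mark matches on either strand to the GC box GGGCGG or to the cyclic AMP response element core TGACG.
Xiap start a: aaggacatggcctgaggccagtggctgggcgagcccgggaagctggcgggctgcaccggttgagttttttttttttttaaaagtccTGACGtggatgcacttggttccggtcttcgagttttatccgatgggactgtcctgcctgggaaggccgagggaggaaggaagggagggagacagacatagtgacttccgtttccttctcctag
Xiap start b: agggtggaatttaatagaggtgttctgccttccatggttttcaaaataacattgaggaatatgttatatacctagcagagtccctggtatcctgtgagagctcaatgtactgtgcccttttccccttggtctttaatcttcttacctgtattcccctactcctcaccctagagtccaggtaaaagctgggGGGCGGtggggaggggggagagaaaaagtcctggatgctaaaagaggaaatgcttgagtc
Birc2: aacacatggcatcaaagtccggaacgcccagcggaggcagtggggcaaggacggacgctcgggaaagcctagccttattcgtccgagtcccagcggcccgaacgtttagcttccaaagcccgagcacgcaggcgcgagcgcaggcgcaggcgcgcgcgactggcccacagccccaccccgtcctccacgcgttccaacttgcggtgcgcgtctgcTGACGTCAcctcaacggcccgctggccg
Birc3: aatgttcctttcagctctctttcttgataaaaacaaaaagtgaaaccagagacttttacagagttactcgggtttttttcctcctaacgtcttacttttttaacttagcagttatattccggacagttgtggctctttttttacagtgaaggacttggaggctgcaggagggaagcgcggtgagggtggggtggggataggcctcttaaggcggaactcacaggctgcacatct
Casp9: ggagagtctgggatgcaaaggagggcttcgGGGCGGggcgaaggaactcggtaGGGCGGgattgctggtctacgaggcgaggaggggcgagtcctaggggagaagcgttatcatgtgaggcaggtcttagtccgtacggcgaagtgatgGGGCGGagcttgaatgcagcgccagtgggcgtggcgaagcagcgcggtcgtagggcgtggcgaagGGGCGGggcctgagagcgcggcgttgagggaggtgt
Start a of Xiap held 1 TGACG, and its 1 GC box fell in the exonic bases that are not printed. Birc2 held TGACG on both strands in 1 overlapping palindrome, Casp9 held 4 GC boxes, and Birc3 held neither motif. Over all 32851 windows of 250 bases, 32.74% held a GC box and 17.77% a TGACG. GC content was 57.6% at start a and 46.4% at start b of Xiap, 68.4% at Birc2, 43.6% at Birc3 and 66% at Casp9, against a median of 52.4% over all windows. None of these 5 printed windows held the E-box CACGTG, the NF-kB consensus or TATAAA, which 6.02%, 7.25% and 12.37% of all windows held. The third Xiap window, chrX:42070992-42071241 on the plus strand, is not printed. It held 1 TATAAA, neither capitalised motif, and a GC content of 39.2%. A second Birc2 window, also not printed, lay wholly in annotated exons and held 2 GC boxes and 1 TGACG. The deposited values are sums per gene, so they do not tell which start was used.

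Xiap stood at 1 low level in the controls and at 1 high level with Rb1. Its level in FPKM, which the authors scaled for gene length and library total, was 3.08, 2.89 and 3.08 in control replicates 1, 2 and 3. With Rb1 it was 16.1, 13.5 and 14.2 FPKM in replicates 1, 2 and 3. The lowest Rb1 library thus lay far above the highest control, and the spread within each group was small beside the distance between them. Group means were 3.02 ± 0.107 FPKM in controls and 14.6 ± 1.36 FPKM with Rb1 (SD, n = 3 each). The fitted fold change was 4.98, given without an interval because Xiap was chosen for this rise. These levels rest on 717, 829 and 758 reads in the controls and on 3980, 2547 and 4241 reads with Rb1. As a share of each library, Xiap took 35.3 to 37.6 CPM in controls, with exact 95% intervals within 32.9 to 40.3 CPM. With Rb1 it took 165 to 197 CPM, with exact intervals within 159 to 203 CPM. Without control replicate 2 the log2 fold change was 2.29, against 2.32 with all 6 libraries. The gene, ENSMUSG00000025860, spans 42059679 to 42109656 of chromosome X (GRCm38, plus strand), has 11 annotated transcripts, and shares no exon position with another annotated gene.

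**Figure D1:**
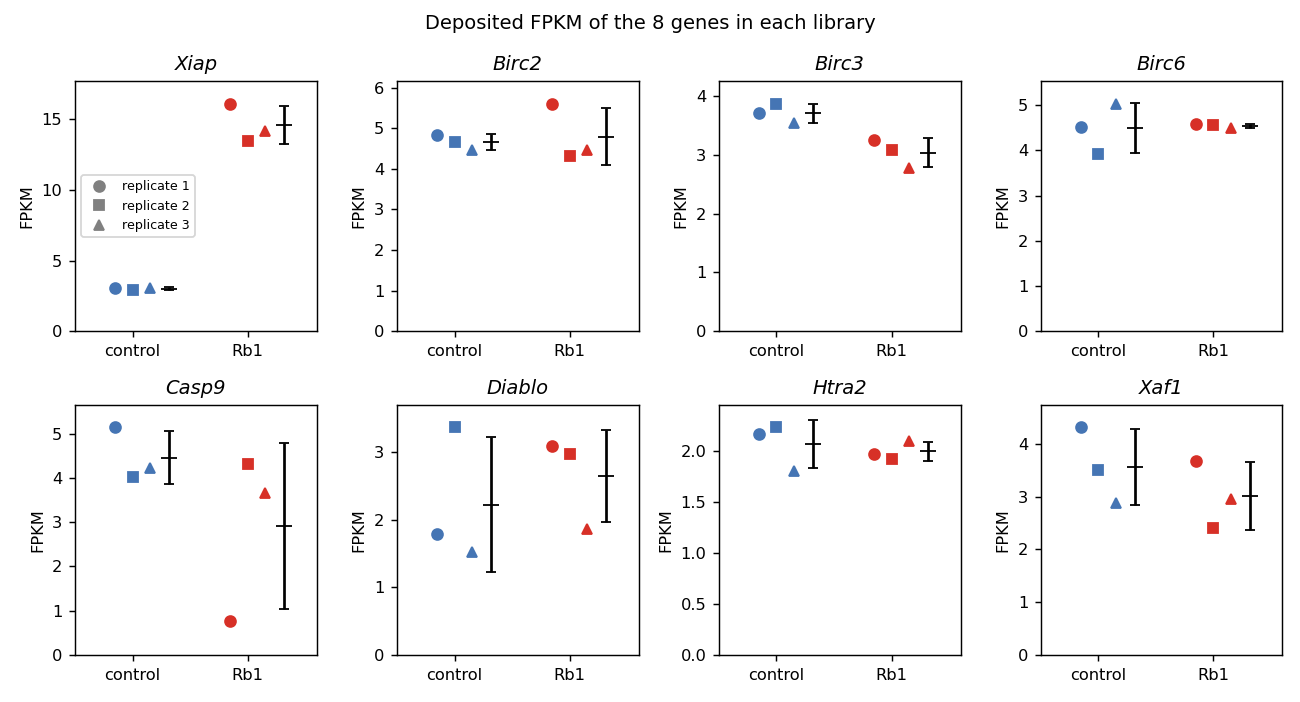
Deposited FPKM of each of the 8 genes (y axis, from 0, a separate scale per gene) in the 3 control and the 3 Rb1 libraries (x axis). Symbols give replicates 1, 2 and 3 and black bars the mean ± SD. Xiap lies near 3 in all controls and above 13 in all Rb1 libraries, Birc3 is slightly lower with Rb1, and Casp9 is low in Rb1 replicate 1 alone.

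The genes beside Xiap on the X chromosome differed far less between the groups. Of 5 protein-coding genes whose bodies lie within 1 Mb of it, Gria3, Thoc2 and Stag2 had enough reads to be tested. Stag2, a cohesin subunit gene that begins 39661 bases beyond the end of Xiap, was at 15, 16.1 and 17 FPKM across control replicates 1 to 3, and at 19.6, 18.1 and 17 FPKM across Rb1 replicates 1 to 3. Its log2 fold change was 0.22 (SE 0.11, adjusted p = 0.506 in edgeR, a test fitted to the counts of all genes), with a 95% interval of -0.04 to 0.49. Part of its exons overlaps another annotated gene. The 3 Rb1 values of Stag2, like those of Thoc2, lay above the 3 controls, as in 7.73% of tested genes after TMM scaling, the library normalization of edgeR. Thoc2, an mRNA export factor gene 139005 bases before Xiap, was at 5.12 to 5.47 FPKM in controls and 5.55 to 6.26 FPKM with Rb1. Its difference was 0.17 on the log2 scale (SE 0.08, edgeR adjusted p = 0.500). Gria3, a glutamate receptor subunit gene 381078 bases before Xiap, was at 0.289 to 0.597 FPKM over the 6 libraries with overlapping groups (-0.19, SE 0.37, edgeR adjusted p = 0.896). Tex13c2 and Sh2d1a had at most 2 and 12 reads per library.

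**Figure D2:**
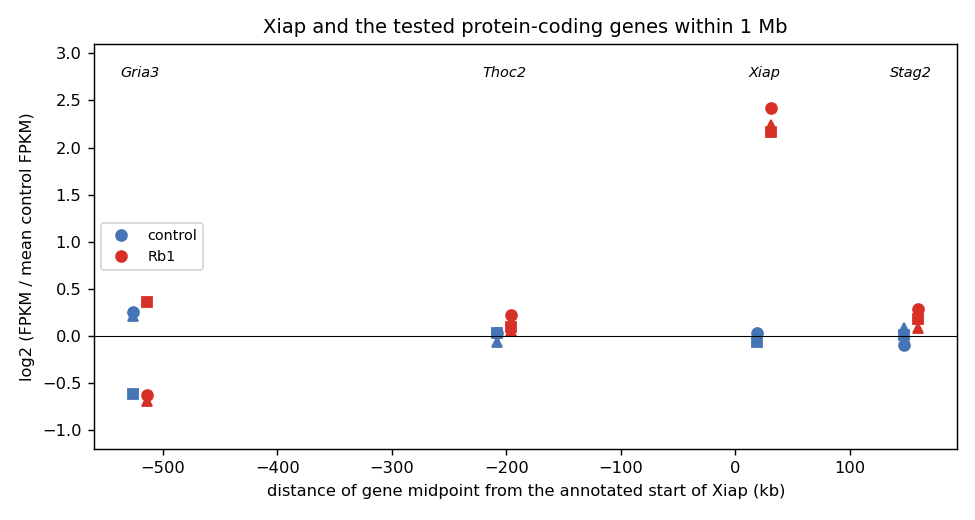
Level of each tested gene in each library relative to its mean in controls (y axis, log2 of the FPKM ratio), by the distance of the gene's midpoint from the annotated start of Xiap (x axis, kb). Blue symbols are control and red symbols Rb1 libraries, with circles, squares and triangles for replicates 1, 2 and 3. Xiap in Rb1 lies above 2, while Thoc2 and Stag2 stay within 0.5 of 0 in every library.

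The step of Xiap was set beside the steps of other genes, in a count added after the values were seen. Xiap was chosen on this contrast, so its place in the count is a description. For 10916 tested genes with a mean of at least 1 FPKM and no 0, the 6 TMM-scaled levels were ranked and the largest ratio between adjacent libraries was taken. The median of that ratio was 1.17, and 172 genes (1.58%) had a ratio of at least 3. The step set control replicate 2 apart in 100 of these genes and another library in 34. In 37 genes it set apart 3 libraries of both groups or any 2 libraries, which could be of the same group. In 1 gene, Xiap (ratio 4.52), it fell between the controls and the Rb1 libraries. Casp9 (5.12) and Bcl2l2 (4.77), a BCL2 relative that protects mitochondria, had steps as large as that of Xiap which did not follow the groups. Bcl2l2 was named after its values were seen. It stood at 2.37 FPKM in control replicate 1 and 1.95 FPKM in Rb1 replicate 3, and at 10.8 to 14.1 FPKM in the other 4 libraries. It shares 594 exon bases on the same strand with Gm20521, which had 68 to 220 reads. What produces such steps was not tested.

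**Figure D3:**
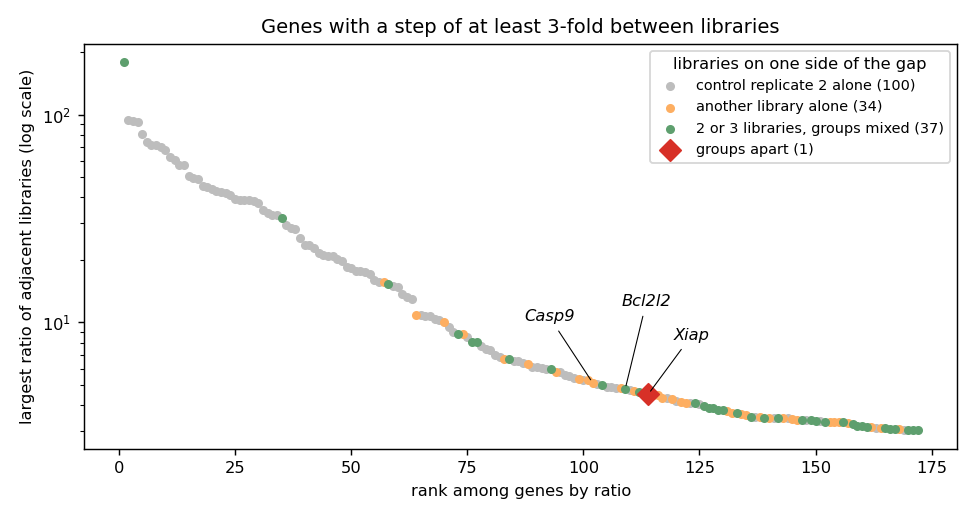
The 172 genes with a ratio of at least 3 between adjacent ranked libraries (y axis, log scale), ordered by that ratio (x axis, rank). Colours give which libraries lie on one side of the step, and the red diamond is Xiap. The class labelled as groups mixed also takes in steps that set apart 2 libraries of the same group. Xiap ranks 114, between many genes in which control replicate 2 or another library stands alone or which fall in that class.

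Among the other IAP genes, Birc2 and Birc6 overlapped between the groups, and Birc3 had slightly lower values in each Rb1 library without passing the test. Of 14093 genes tested across the table, 1 (0.00710%) had an edgeR adjusted p under 0.05. That count includes Xiap, which was chosen for its rise in this contrast. It is therefore neither a test of Xiap nor a background independent of that choice. None of the other 7 members passed in edgeR, or in DESeq2, which called 390 genes (2.79%), with 0.593% higher and 2.19% lower. At an unadjusted edgeR p under 0.05 there was 1 of 7, Birc3, lower, where 7.54% of all tested genes were lower at that level. Birc3 (ENSMUSG00000032000, chromosome 9 from 7848699 to 7873186, minus strand) was at 3.71, 3.87 and 3.55 FPKM in control replicates 1, 2 and 3. In Rb1 replicates 1, 2 and 3 it was at 3.26, 3.08 and 2.77 FPKM. All 3 Rb1 values lay below all 3 controls, as they did for 9.74% of tested genes on the TMM scale. The log2 fold change was -0.25 (SE 0.10, edgeR adjusted p = 0.430, DESeq2 adjusted p = 0.487) and ran from -0.29 to -0.20 when 1 library was left out. BIRC3 is an NF-kB target that leukocytes express, and the summed macrophage markers given above were lower in the same 3 libraries. Their part in this difference was not tested.

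Birc2 (ENSMUSG00000057367, chromosome 9 from 7818227 to 7837064, minus strand) is the neighbour and closest relative of Birc3. It was at 4.84, 4.67 and 4.45 FPKM in the controls and at 5.60, 4.32 and 4.46 FPKM across Rb1 replicates 1 to 3, so the groups overlapped. Its log2 fold change was 0.08, with a 95% interval of -0.16 to 0.32 (edgeR adjusted p = 0.829). The sources used here do not say how reads matching both Birc2 and Birc3 were assigned. Birc6 (ENSMUSG00000024073, chromosome 17 from 74528295 to 74703356, plus strand) encodes a giant IAP that is also a ubiquitin-conjugating enzyme. Control values were 4.52, 3.92 and 5.03 FPKM and Rb1 values 4.58, 4.55 and 4.49 FPKM in replicates 1, 2 and 3. The Rb1 values fell inside the range of the controls, and the log2 fold change was 0.06, with an interval of -0.24 to 0.36 (edgeR adjusted p = 0.908).

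With these levels, Xiap went from the least abundant of the 4 IAP transcripts per length to the most abundant. It made up 19.1%, 18.8% and 19.1% of their summed FPKM across control replicates 1 to 3, and 54.6%, 53.1% and 54.8% in Rb1 replicates 1, 2 and 3. The sum itself was 15.4 to 16.1 FPKM in controls and 25.5 to 29.6 FPKM with Rb1. In controls the mean FPKM ran from Birc2 (4.66) and Birc6 (4.49) through Casp9 (4.46), Birc3 (3.71), Xaf1 (3.56), Xiap (3.02) and Diablo (2.23) to Htra2 (2.07). In that order, Casp9 and Birc3 were the 1 pair of neighbours whose 3 values did not overlap. With Rb1 the 3 Xiap values lay apart from those of Birc2, the next gene, at a mean of 4.79 FPKM. The gene lengths implied by the deposited FPKM were longer than the exon lengths of the annotation used here, 12186 against 9469 bases for Xiap. Scaled by the latter, Xiap was the lowest of the 8 in controls (3.88, against 3.89 for Diablo) and the highest with Rb1 (18.8).

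**Figure D4:**
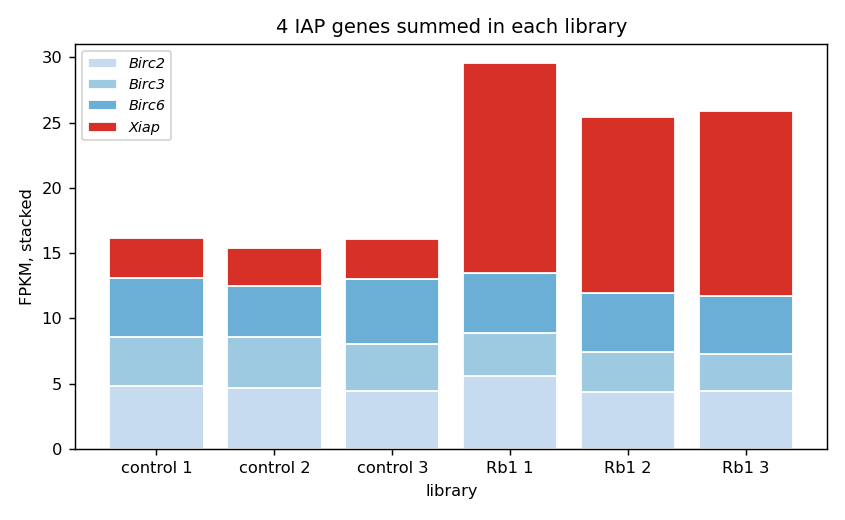
FPKM of Birc2, Birc3, Birc6 and Xiap stacked in each library (y axis, from 0; x axis, library). The red part is Xiap, 18.8% to 19.1% of the stack in controls and 53.1% to 54.8% with Rb1, while the blue parts keep similar heights.

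Casp9, the initiator caspase that the apoptosome activates and XIAP inhibits, was low in 1 Rb1 library and near the controls in the other two. Its values were 5.14, 4.01 and 4.22 FPKM in control replicates 1, 2 and 3. Rb1 replicate 1 stood at 0.776 FPKM, and Rb1 replicates 2 and 3 at 4.31 and 3.65 FPKM. Of the 6 libraries, 5 therefore lay between 3.65 and 5.14 FPKM. Rb1 replicate 2 fell within the range of the controls, and Rb1 replicate 3 lay slightly below that range. The low value rests on 119 reads, or 5.88 CPM with an exact 95% interval of 4.87 to 7.04 CPM, where the other libraries had 504 to 745 reads and at least 27.7 CPM. The log2 fold change was -0.54 (SE 0.56, edgeR adjusted p = 0.779, DESeq2 adjusted p = 0.823). Without Rb1 replicate 1 it was -0.08 (edgeR adjusted p = 0.873). Casp9 (ENSMUSG00000028914, chromosome 4 from 141793612 to 141815976, plus strand) shares 94 exon bases with each of Cela2a and Ctrc on the opposite strand, and both had 0 reads in every library. In Rb1 replicate 1 the 7 endothelial markers summed to 2774 CPM, against 1569 to 1842 CPM in the other 5 libraries, and the macrophage markers were lowest. The part of these differences in the Casp9 value was not tested.

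Diablo and Htra2, the mitochondrial antagonists of IAPs, did not follow Xiap. Diablo (ENSMUSG00000029433, chromosome 5 from 123509765 to 123524176, minus strand) was at 1.79, 3.37 and 1.52 FPKM across control replicates 1 to 3, and at 3.1, 2.98 and 1.86 FPKM across Rb1 replicates 1 to 3. It was high in 1 control and 2 Rb1 libraries and low in the other 3, so the groups overlapped. The log2 fold change was 0.28 (SE 0.33, edgeR adjusted p = 0.810), and without control replicate 2, the library rich in muscle transcripts, it was 0.72 (edgeR adjusted p = 0.489). Its exons overlap those of B3gnt4 on the opposite strand by 1326 bases, but B3gnt4 had only 2 to 8 reads per library. Htra2 (ENSMUSG00000068329, chromosome 6 from 83051266 to 83055273, minus strand) encodes a serine protease of the intermembrane space. Its values were 2.17, 2.23 and 1.8 FPKM in controls and 1.97, 1.92 and 2.10 FPKM with Rb1. The Rb1 values lay within the controls, with a log2 fold change of -0.01 and a 95% interval of -0.32 to 0.31 (edgeR adjusted p = 0.994). Htra2 shares 753 exon bases with Aup1 and 535 with Loxl3 on the opposite strand, both expressed here, so its level is uncertain to that extent. The ratio of Xiap to Diablo FPKM was 0.859 to 2.02 in controls and 4.54 to 7.65 with Rb1, and that of Xiap to Htra2 was 1.30 to 1.71 and 6.76 to 8.20. These ratios contain the values for which Xiap was chosen.

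Xaf1, whose product binds XIAP and counters it, is induced by interferons. It was at 4.31, 3.50 and 2.88 FPKM across control replicates 1 to 3, and at 3.68, 2.40 and 2.95 FPKM across Rb1 replicates 1 to 3. The groups overlapped, with a log2 fold change of -0.20 (SE 0.18, edgeR adjusted p = 0.735) that ran from -0.32 to -0.07 when 1 library was left out. Of 14 tested interferon response genes, 12 were below 0, as were 48.7% of all tested genes, with a median log2 fold change of -0.28. The summed level of these 14 was 481 to 598 CPM in controls and 408 to 539.8 CPM with Rb1, overlapping as Xaf1 did. Xaf1, ENSMUSG00000040483, spans 72301629 to 72313733 of chromosome 11, plus strand.

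Wider apoptosis genes were described through 6 lists of 72 genes, of which 71 were found in the table and 69 were tested. None passed in edgeR, against 0.00710% of all genes, a share that includes Xiap. DESeq2 called 1, Tnfrsf1b, lower, where it called 2.19% of all genes lower. At an unadjusted edgeR p under 0.05, 11 were lower and 1 higher, against 7.54% and 4.01% of all tested genes. With 1 library left out, the count of lower genes was 6, 4 and 16 without control replicates 1, 2 and 3. It was 11, 8 and 5 without Rb1 replicates 1, 2 and 3. Over all genes, edgeR gave 1159 to 1858 at that unadjusted level in those fits, in either direction, against 1628 with all 6 libraries. The median log2 fold change of the 69 was -0.10 (-0.07 without control replicate 2), and that of all tested genes was 0.01. The groups did not overlap for 12 lower and 2 higher genes, with 9.74% and 7.73% of all tested genes as background.

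The other BIR genes had negative values throughout. All 5 tested were below 0, as were 48.7% of all tested genes, with a median log2 fold change of -0.74 (-0.79 without control replicate 2). At an unadjusted edgeR p under 0.05, 4 were lower, against 7.54% of all tested genes. Birc5, survivin, which acts in cell division, was at 1.04, 1.07 and 0.523 FPKM across control replicates 1 to 3, and at 0.261, 0.342 and 0.479 FPKM across Rb1 replicates 1 to 3 (log2 fold change -1.22, edgeR adjusted p = 0.309). Naip5 and Naip6 encode sensors of bacterial flagellin that phagocytes express. Naip5 was at 1.12 to 1.95 FPKM in controls and 0.809 to 1.07 FPKM with Rb1 (-0.74, edgeR adjusted p = 0.294). The related Naip6 was at 0.684 to 1.24 and 0.460 to 0.630 FPKM (-0.88, edgeR adjusted p = 0.269). Apart from Birc5, all tested genes of this list were Naip genes. The Naip genes are near-identical copies, so reads may have been split between them. The counts and the median above thus do not rest on independent genes. In Birc5, Naip5 and Naip6 the Rb1 values lay below the controls by a small margin, as in 9.74% of tested genes on the TMM scale. Macrophage markers were lower in the same libraries, and the part of those markers was not tested. Birc7 had 0 reads in each library and was not tested.

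Among 8 other caspases tested, 4 were above and 4 below 0, with a median of 0.00. Casp1, the inflammatory caspase of macrophages, was at 10.4 to 17.3 FPKM in controls and 8.05 to 11.9 FPKM with Rb1 (-0.49, edgeR adjusted p = 0.422). Casp8, the initiator of death receptor signalling, was at 14.2 to 16.7 and 13.8 to 21.4 FPKM (0.16, edgeR adjusted p = 0.731).

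The 9 tested genes of the apoptosome and of mitochondrial release had a median of 0.03. Endog, a mitochondrial nuclease, was at 7.82, 6.60 and 6.81 FPKM in controls and 8.88, 7.86 and 9.45 FPKM with Rb1 (0.35, edgeR adjusted p = 0.432). Apaf1, the scaffold on which CASP9 is activated, was at 1.16 to 1.45 FPKM in controls and 0.838 to 1.21 FPKM with Rb1 (-0.31, edgeR adjusted p = 0.589). Pgam5, a mitochondrial phosphatase, had a log2 fold change of 0.31 (edgeR adjusted p = 0.651) and was highest in Rb1 replicate 2. Endog shares exon bases with the opposite-strand gene Spout1 and Pgam5 with Gm26718, so both levels are uncertain to that extent.

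Of the BCL2 family genes that guard mitochondria, 5 of 8 had negative values, with a median of -0.48 that was -0.30 without control replicate 2. Mcl1, the most abundant of them, was at 79.5, 83.2 and 79.9 FPKM across control replicates 1 to 3, and at 68.5, 62.1 and 59.9 FPKM across Rb1 replicates 1 to 3. The groups were apart, at a log2 fold change of -0.31 (SE 0.10, edgeR adjusted p = 0.318, DESeq2 adjusted p = 0.0573). Bcl2a1b, a leukocyte member of a family of near-identical copies, was at 3.34 to 6.30 and 1.35 to 3.45 FPKM (-0.90, edgeR adjusted p = 0.433). Its other copies in the list were also negative (-0.67 and -0.95) and were counted separately. The median of this list thus does not rest on independent genes. Bcl2 was at 4.68 to 5.26 FPKM in controls and 4.81 to 7.25 FPKM with Rb1 (0.33, edgeR adjusted p = 0.469).

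Their BH3-only antagonists were split, 5 above and 5 below 0, with a median of -0.01 (-0.07 without control replicate 2). Pmaip1, which encodes NOXA, the antagonist of MCL1, was at 1.56, 1.96 and 1.25 FPKM in controls and 0.972, 1 and 0.663 FPKM with Rb1 (-0.82, edgeR adjusted p = 0.314). Bid, which links CASP8 to mitochondria, was at 1.35 to 2.84 and 2.51 to 3.15 FPKM (0.54, edgeR adjusted p = 0.527), and 628 of its exon bases overlap Bcl2l13 on the opposite strand. Hrk was at or below 0.226 FPKM everywhere (-0.75, edgeR adjusted p = 0.517).

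The 29 signalling partners of IAPs had a median of -0.05 (-0.10 without control replicate 2), with 18 negative. Tnfrsf1b, the tumour necrosis factor receptor that recruits BIRC2 and BIRC3 through TRAF2, was at 21.5, 24.4 and 20.3 FPKM across control replicates 1 to 3, and at 16, 16.4 and 14.5 FPKM across Rb1 replicates 1 to 3. The groups were apart, with a log2 fold change of -0.46 (SE 0.11) that passed in DESeq2 (adjusted p = 0.0358) and not in edgeR (adjusted p = 0.220). Leukocytes express this receptor, and the summed macrophage markers moved the same way, with no test of their part. Traf2, the adaptor of that complex, was at 2.65 to 3.45 FPKM in controls and 2.25 to 2.60 FPKM with Rb1 (-0.31, edgeR adjusted p = 0.433). Traf3, its partner in holding back non-canonical NF-kB signalling, was at 1.16 to 2.48 and 0.613 to 1.57 FPKM, overlapping (-0.97, edgeR adjusted p = 0.410).

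**Figure D5:**
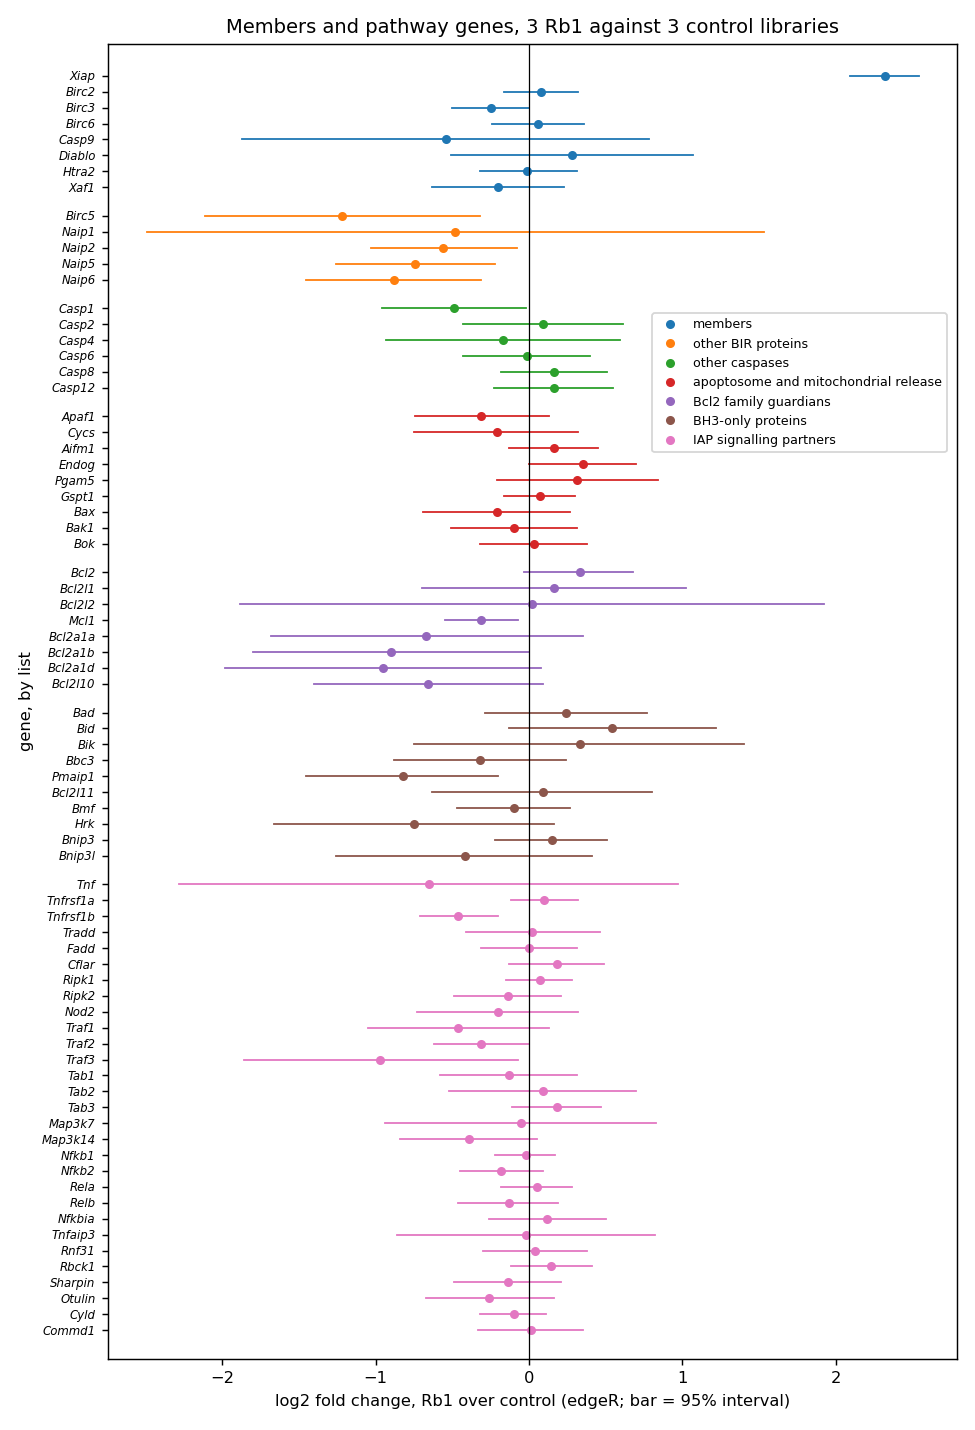
Log2 fold change of Rb1 over control (x axis) for the 8 members and 67 of the 69 tested pathway genes (y axis, grouped by list and colour), with edgeR 95% intervals from 3 libraries per group. Xiap lies alone at 2.32, and every other plotted value lies between -1.22 and 0.54. The interval drawn for Xiap takes no account of its choice for this rise and is not read as a test.

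The genes whose levels over the 6 libraries were most like those of Xiap differed between the groups by less. Among 12929 genes averaging 1 CPM or more, Phf20 (Pearson r 0.991), Elmod1 (0.990), Klhl24 (0.986), Shld2 (0.985) and Cryzl1 (0.983) came closest on log2 CPM. The points share the division into controls and Rb1, which sets most of each r, so no p is given. Phf20, a reader of histone methylation, was at 3.80, 3.64 and 3.62 FPKM in controls and 4.15, 3.77 and 3.82 FPKM with Rb1, a log2 fold change of 0.13. Elmod1 had a difference of 1.21, from 0.220 to 0.240 FPKM in controls to 0.476 to 0.568 FPKM with Rb1. The most opposed patterns were those of Rasa1 (-0.996), Psap (-0.991) and Pld3 (-0.991). Rasa1, a GTPase-activating protein of RAS, was at 10.4 to 11.1 FPKM in controls and 7.36 to 8.12 FPKM with Rb1. Of the other 7 members, Birc3 had an r of -0.90 with Xiap, and the rest lay between -0.50 (Casp9) and 0.46 (Birc2).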

How the data were processed

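The members and the gene lists were chosen with earlier results of these data known. Reads were processed with CASAVA 1.8 and TopHat2 2.0.6 on mm10, per the submitters' processing notes. Neither these notes nor the labels name the counting tool, annotation release or strand setting. The table deposited by the authors holds raw read counts per Ensembl gene and FPKM. The deposited FPKM equalled the count over a gene length and the column total, checked on 13169 genes (largest relative spread 0.00984%). GENCODE M21 (GRCm38, another name of mm10) supplied coordinates and symbols.

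Counts were tested with edgeR 4.0.16 in R 4.3.3: TMM normalization, the default filter (minimum count 10, total 15), and a quasi-likelihood comparison of both groups without covariates, over 14093 genes with Benjamini-Hochberg adjustment. Standard errors and intervals were derived from the F statistic. DESeq2 1.42.0 ran on the same genes. Both used a threshold of 0.05. Exact intervals are Clopper-Pearson at 95% and cover counting error only. The edgeR procedure was tested on simulated data. No 2 libraries agreed within sampling noise (chi-square per degree of freedom at least 31.31). Alternatives were 10 in number: another normalization, no filter, DESeq2, replicate numbers as a block, and leaving out each library. TMM-scaled FPKM was set beside the deposited values, and scaling by M21 exon length was added after seeing the data.

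Genes named were the 8 members, up to 3 genes of each pathway list with the smallest unadjusted p, neighbours within 1 Mb of Xiap, and the 5 most like and 3 most unlike Xiap by Pearson r on log2 CPM (prior count 2). Of 22040 identifiers, 21933 had a symbol. Listed genes with no match were left out. A result that this rule names in the caspase list is not reported here.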

Additional observations from a re-analysis of the deposited data

How the results depend on the processing

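The log2 fold change of Xiap stayed between 2.29 and 2.35 over 10 alternatives. No other member passed under any of them. Over the alternatives, values ran from 0.00 to 0.12 for Birc2, -0.29 to -0.20 for Birc3, -0.03 to 0.16 for Birc6, -0.95 to -0.08 for Casp9, 0.08 to 0.72 for Diablo, -0.08 to 0.06 for Htra2 and -0.32 to -0.07 for Xaf1. Birc6 and Htra2 thus changed sign at values near 0, and the Casp9 and Diablo values depended on Rb1 replicate 1 and control replicate 2. Over all genes, Xiap included, edgeR called 1, and between 1 and 4 when 1 library was left out. The counts were 3, 4 and 2 without Rb1 replicates 1, 2 and 3. DESeq2 called 390, of which 83 were higher and 307 lower, and 1 pathway gene, Tnfrsf1b. The cause of the difference between the tools was not tested. No other alternative called a pathway gene.

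The replicate numbers are shared between the groups, but nothing in the labels pairs the samples. Correlations of same-numbered samples' deviations from their group means were 0.136, -0.109 and 0.018. With the replicate number as a block, edgeR called 1 gene and the Casp9 value was -0.82. TMM scaling moved the FPKM group mean by less than 1 SD in 15 of 16 cases, the exception being Birc6 with Rb1 (4.61 against 4.54). With 3 samples a group, edgeR leaves intervals as wide as -1.87 to 0.78 (Casp9), so modest changes in Casp9 and Diablo were not detectable.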
